A study of Mus musculus with 3 samples.

Results

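Claudins are the membrane proteins whose strands form the seal of tight junctions, and 10 claudin genes of the kidney were followed in 3 samples of adult mouse renal corpuscle, out of 19938 genes with a named signal on the arrays. The 10 genes were chosen by name. They are *Cldn1*, *Cldn5* and *Cldn15*, taken as claudins of the corpuscle, and *Cldn2*, *Cldn3*, *Cldn4*, *Cldn8*, *Cldn10*, *Cldn16* and *Cldn19*, taken as claudins of the tubule. A gene was read from the probe set that the platform annotation gives to that symbol alone, and where several qualified, from the one with the highest mean signal. All 10 had such a probe set, 9 of them exactly 1.

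The 3 samples formed 1 group, wild-type CD-1 male mice aged 7 to 9 weeks, each sample a pool of about 2 kidneys. No treatment, transgene or deletion was carried by any animal. Corpuscles were freed with collagenase A and collected on filters of falling pore size, and no cells were sorted, so any tubule pieces that passed the filters would have been measured with the corpuscles. The RNA was amplified and hybridised to 1 Affymetrix mouse gene array per sample. With 1 group, the data give levels against background and the spread between arrays, and no comparison between conditions. Nothing in the labels ties the pools to separate litters or days, and the spread may in part be technical.

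Claudins of neighbouring cells meet across the cell border, and the set a cell makes decides whether its junction is a barrier or a selective pore for cations, anions or water. In the kidney the set differs from one tubule segment to the next. In the corpuscle, junctions join the parietal cells that line the capsule, join endothelial cells of the capillaries, and remain in part between podocytes beside the slit diaphragm.

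The labelled tissue was checked against its markers, beside 58.9% of all genes detected above background by the rule given below, with a median of 0.37 log2. All 21 podocyte markers with a value and all 20 endothelial markers were detected, with medians of 3.99 and 3.22 log2 above background. Of the parietal markers 8 of 12 were detected, or 66.7%, with a median of 0.36, values close to those of all genes. Pearson's r between pairs of arrays, taken over genes, ran from 0.9975 to 0.9978, and genes are not independent replicates. Many genes held 1 value to every decimal on several arrays: 54.2% of genes on all 3 and 27.5% on 2 of them. The tied genes are included in r, so r says little about how alike the samples were. Where the arrays share a value, the SD of 0 does not mean that the level is known without error.

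The start regions of 4 claudins are shown first, because the results below turn on these genes. *Cldn5*, *Cldn15* and *Cldn1* were the claudins taken as those of the corpuscle. *Cldn16* is the next protein-coding gene beside *Cldn1* on chromosome 16, and was among the members that differed most between arrays. Each sequence is the 250 bases before the annotated start in RefSeq (GRCm38.p6), read 5′ to 3′ on the strand of the gene. Capitals mark 6-base matches, on either strand, to GGGCGG (the GC box), AACAAT (a SOX factor motif), TATAAA (the TATA box) or GTTAAT (a core bound by HNF1 factors).
Cldn5, chr16:18776597-18776846, plus strand: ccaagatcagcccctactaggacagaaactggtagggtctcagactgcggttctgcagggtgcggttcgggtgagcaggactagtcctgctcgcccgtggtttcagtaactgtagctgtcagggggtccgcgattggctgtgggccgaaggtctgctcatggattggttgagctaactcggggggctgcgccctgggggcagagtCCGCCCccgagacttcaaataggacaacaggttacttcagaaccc
Cldn15, chr5:136967619-136967868, plus strand: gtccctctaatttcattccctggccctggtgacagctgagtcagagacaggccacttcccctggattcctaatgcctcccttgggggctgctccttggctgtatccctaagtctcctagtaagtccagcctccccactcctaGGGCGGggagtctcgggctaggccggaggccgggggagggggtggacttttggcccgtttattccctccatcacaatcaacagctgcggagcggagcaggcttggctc
Cldn1, chr16:26371840-26372089, minus strand: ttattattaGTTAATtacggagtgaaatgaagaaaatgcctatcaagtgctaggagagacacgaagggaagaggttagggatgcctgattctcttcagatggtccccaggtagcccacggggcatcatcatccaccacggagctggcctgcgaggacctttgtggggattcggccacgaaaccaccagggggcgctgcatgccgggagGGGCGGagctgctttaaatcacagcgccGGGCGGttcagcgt
Cldn16, chr16:26462885-26463134, plus strand: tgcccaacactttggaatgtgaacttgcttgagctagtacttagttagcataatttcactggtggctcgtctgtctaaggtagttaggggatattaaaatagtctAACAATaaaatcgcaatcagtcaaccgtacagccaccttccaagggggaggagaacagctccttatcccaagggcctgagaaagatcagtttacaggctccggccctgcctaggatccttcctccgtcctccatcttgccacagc

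These 4 regions differed in base composition and in the motifs they held. The regions of *Cldn5*, *Cldn15* and *Cldn1* were 59.6%, 60.8% and 55.6% G and C, and that of *Cldn16* was 48.0%, beside a median of 52.4% over 32851 such regions. *Cldn5* held 1 GC box, whose first base lay 45 bases before the start, and *Cldn15* held 1 at 108 bases. *Cldn1* held 2, at 42 and 14 bases, and the HNF1 core at 241 bases. *Cldn16* held no GC box in this window and 1 SOX motif at 145 bases.

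Of the 10 claudins, 9 had at least 1 start region in the table, 11 regions in all, of which the 2 of *Cldn19* overlap. A GC box was found in 8 of the 11, in 7 of the 9 genes, against 32.7% of all regions. The TATA box was found in 1 region, that of *Cldn2*, 35 bases before the start, against 12.4% of all regions. The SOX motif was found in 1, that of *Cldn16*, against 9.42%. The HNF1 core was found in 2, those of *Cldn1* and of the first of the 2 *Cldn10* starts, where it lay 15 bases before the start, against 6.43%. The *Cldn10* starts differed in composition, with 36.0% G and C at the first and 72.4% at the second, and the second held 3 GC boxes. A match is a run of letters and not a shown binding site.

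Detection was judged against a background set by probe sets of odour and pheromone receptors, few of which are known from kidney. On each array the background was the 95th percentile of 1212 receptor probe sets, which was 6.90, 6.96 and 6.92 on the log2 scale, or linear signals of 119.3, 124.1 and 120.8. Detection meant a log2 signal above this level in a one-sided limma test with a Benjamini-Hochberg adjusted p under 0.05 over all genes. All genes here include the receptor genes that set the background, and without them 62.4% were detected, with a median of 0.49 log2 above it. By this rule 58.9% of the 19938 genes were detected, and 7 of the 10 claudins. All 3 corpuscle claudins were among them, at a median of 1.19 log2 above background. The tubule claudins gave 4 of 7, or 57.1%, a share close to that of all genes, and their median was 0.08 log2 above background against 0.37 for all genes. The distances of the groups did not overlap, since the lowest corpuscle claudin stood 0.66 log2 above background and the highest tubule claudin 0.32. Of all genes, 43% had a mean signal as high as that of *Cldn1*, and 51.6% as high as that of *Cldn19*. Both lists were chosen with earlier results of these data known, so the gap is not a test of them. Each probe set has its own affinity, so these distances do not order the transcripts by amount.

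*Cldn5*, the claudin of endothelial junctions that is also known in podocytes, had a log2 signal of 9.81 on each of the 3 arrays. This is a linear signal of 900.3, and 2.89 ± 0.04 (SE, n = 3) log2 above background. Of the 10 claudins it stood farthest above background. The arrays gave the same value, so the samples could not be set apart by it. Here and below, an SE is that of the limma fit, which follows signal level and not the spread of each gene.

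*Cldn15*, known as a pore for cations in the intestine, had log2 signals of 8.38 on replicate 1, 8.00 on replicate 2 and 7.96 on replicate 3. Its mean was 8.11 ± 0.23 (SD, n = 3), a linear signal of 276.6, and it stood 1.19 ± 0.04 (limma SE) log2 above background. Its distances on replicates 1, 2 and 3 were 1.48, 1.05 and 1.04 log2, farther apart than that SE conveys. Replicate 1 was the high one, with a linear signal of 332.4 against 256.7 and 248.2. All 3 arrays lay above their background by at least 1.04 log2.

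*Cldn1*, the barrier claudin of epidermis that marks parietal cells in the kidney, had a log2 signal of 7.58 on each array. This is a linear signal of 191.6, and 0.66 ± 0.03 (SE, n = 3) log2 above background. It was nearer to background than the other corpuscle claudins, and it lay close to the 99th percentile of the receptors, which was 7.52, 7.58 and 7.58 on the 3 arrays.

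The other parietal markers ranged widely. *Cd24a*, a surface antigen, *Cp*, which encodes ceruloplasmin, *Akap12*, a scaffold for protein kinase A, and *Ncam1*, an adhesion molecule, were 6.05, 3.04, 1.29 and 0.75 log2 above background. *Krt18*, *Cd44* and *Prom1* were not detected, at 0.27, 0.58 and 0.62 log2 below it, and neither was *Krt19*. *Pax8* and *Pax2*, transcription factors of the kidney epithelial lineage, had log2 signals of 7.37 and 7.19 on every array. They were detected at 0.45 and 0.27 log2 above background.

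**Figure D1:**
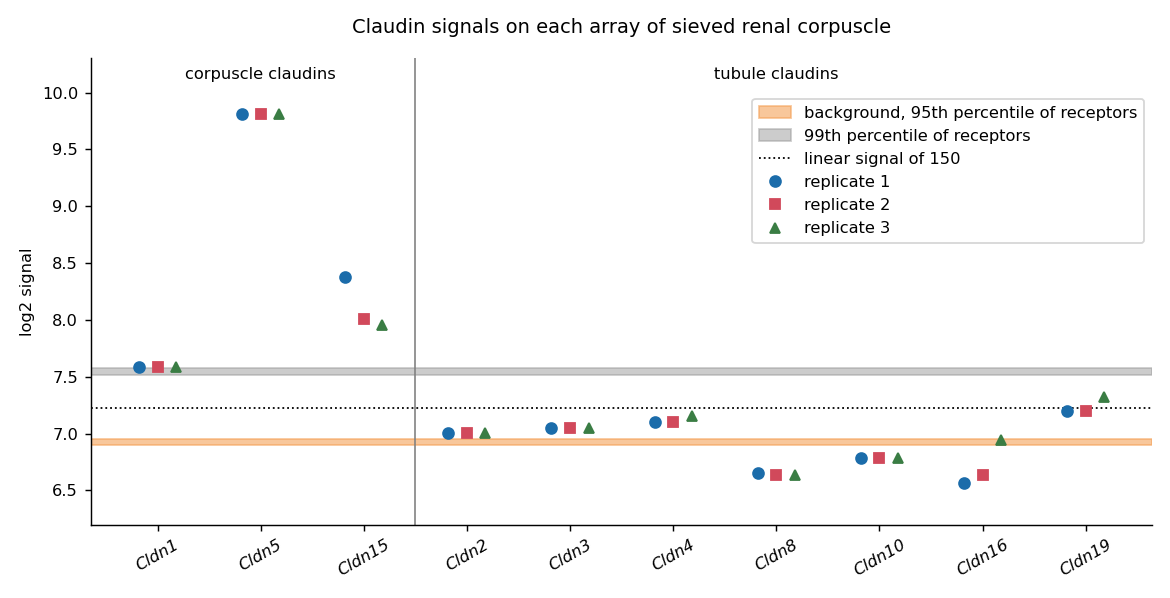
Log2 signal (y axis) of the 10 claudins (x axis) on each of the 3 arrays, 1 point per array, with the range over arrays of the 95th and 99th percentile of receptor probe sets as bands and a linear signal of 150 as a dotted line. *Cldn5* sits at 9.81 and *Cldn15* at 7.96 to 8.38, *Cldn1* at 7.58 touches the upper band, and the 7 tubule claudins lie between 6.57 and 7.32 around the lower band.

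*Cldn2* and *Cldn10* are claudins of the proximal tubule, where *Cldn2* forms a pore for cations and water and one form of *Cldn10* a pore for anions. *Cldn2* had a log2 signal of 7.00 on each array, a linear signal of 128.2. It was called at 0.08 ± 0.03 (SE, n = 3) log2 above background, with a limma adjusted p of 0.00509, the largest among the 7 detected claudins. Without replicate 1 or without replicate 3 the call was lost, with adjusted p-values of 0.117 and 0.164. The genes at the edge of the call were *Rtbdn*, detected at 0.054 log2 above background, and *Pcgf6*, at 0.053 and not detected.

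*Cldn10* had a log2 signal of 6.79 on each array, a linear signal of 110.5, which was 0.14 log2 below background. Its other probe set gave 6.76 on each array. A probe set that the annotation gives to both *Dzip1* and *Cldn10* gave 6.90 on each array, 0.02 log2 below background. No probe set of *Cldn10* was detected. The probe sets do not tell the proximal form from that of the thick limb here.

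Beside these claudins, 20 of 23 proximal tubule markers were detected, or 87%, against 58.9% of all genes, with a median of 0.60 log2 above background against 0.37. *Kap*, an androgen-regulated protein of proximal cells, *Gatm*, an enzyme of creatine synthesis, *Cyp2e1*, a cytochrome, and *Aqp1*, a water channel, were 3.68, 2.77, 2.19 and 1.95 log2 above it. *Slc6a19*, *Dpep1* and *Cubn* were not detected, at 0.06, 0.25 and 0.39 log2 below it. The summed linear signal of the proximal list was 6519, 7397 and 6904 on replicates 1, 2 and 3, and that of the 7 tubule claudins was 851, 855 and 896. The mean linear signals of these 7 claudins ran from 100.1 to 151.0, around the background levels of 119.3, 124.1 and 120.8. Their sum thus measures little beyond background. Whether RNA of proximal tubule pieces gave the *Cldn2* signal was not tested. In such whole-tissue RNA, fewer cells of a type and less RNA per cell cannot be told apart.

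*Cldn16* and *Cldn19* are partners in the thick ascending limb, where their joint pore lets magnesium and calcium be taken back from the urine. *Cldn19* had log2 signals of 7.20, 7.20 and 7.32, with a mean of 7.24 ± 0.07 (SD, n = 3) and a linear signal of 151.0. It was detected at 0.32 ± 0.03 (SE) log2 above background and lay above it on all 3 arrays. *Cldn16* had log2 signals of 6.57, 6.64 and 6.95 on replicates 1, 2 and 3, and its mean was 6.72 ± 0.20 (SD, n = 3) and a linear signal of 105.2. It was not detected, at 0.21 log2 below background on average. On replicate 3 alone it stood above the background of its array, by 0.03 log2, and on replicates 1 and 2 it lay 0.33 and 0.32 log2 below. The gap between these partners, on different probe sets, is not a ratio of their transcripts.

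Of the 8 thick limb markers that are not claudins, *Umod*, *Egf*, *Kcnj1*, *Sostdc1* and *Bsnd* were detected and *Slc12a1*, *Ptger3* and *Enox1* were not. *Egf*, the epidermal growth factor gene, and *Umod*, which encodes uromodulin, were 2.72 and 2.32 log2 above background. *Kcnj1*, the potassium channel ROMK, and *Sostdc1*, a secreted BMP antagonist, were 1.10 and 1.07 log2 above it. *Slc12a1*, the sodium, potassium and chloride cotransporter that defines this segment, was 0.09 log2 below background. With *Cldn10*, *Cldn16* and *Cldn19* included, 6 of 11 genes of this list were detected, or 54.5%, a share near the 58.9% of all genes.

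*Cldn3*, *Cldn4* and *Cldn8* are claudins of the distal nephron, where *Cldn4* and *Cldn8* form a chloride path in the collecting duct and *Cldn3* acts as a barrier claudin. *Cldn4* had log2 signals of 7.10, 7.10 and 7.15 and was detected at 0.20 ± 0.03 (SE, n = 3) log2 above background. *Cldn3*, its next protein-coding neighbour on chromosome 5, had 7.05 on each array and was detected at 0.13 ± 0.03 (SE, n = 3). *Cldn8* had 6.66, 6.64 and 6.64, a linear signal of 100.1, and was not detected, at 0.28 log2 below background. It was the lowest of the 10 claudins against background and lay below it on every array.

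Of 16 collecting duct markers 9 were detected, or 56.2%, near the 58.9% of all genes, and their median was 0.26 log2 above background against 0.37 for all genes. *Gata3*, a transcription factor of both collecting duct and mesangium, *Krt7*, a keratin, *Atp6v1g3*, a subunit of the proton pump of intercalated cells, and *Aqp2*, the vasopressin-regulated water channel, were 3.18, 2.15, 0.99 and 0.91 log2 above background. *Foxi1*, *Slc26a4* and *Scnn1b* were 0.14, 0.34 and 0.49 log2 below it. *Scnn1a* and *Scnn1g*, the other subunits of the epithelial sodium channel, were not detected either. Of 9 markers of the distal convoluted and connecting tubule 7 were detected, or 77.8%, against 58.9% of all genes, with a median of 1.52 log2 above background. Of these *Wnk1*, a kinase, *Sgk1*, a kinase induced by aldosterone, *S100g*, a calcium-binding protein, and *Calb1*, which encodes calbindin, were 4.36, 3.56, 3.35 and 2.46 log2 above background. *Wnk1* and *Sgk1* gave the largest linear signals of this list, 2488 and 1428. No cells were sorted, so the list may not reflect distal cells alone. *Trpm6* and *Trpv5*, channels for magnesium and calcium, were not detected, at 0.62 and 0.63 log2 below it. The part of distal and collecting duct RNA in the signals of *Cldn3* and *Cldn4* was not tested.

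The number of claudins called depended on where background was set. At the 99th percentile of the receptors, 41.7% of all genes were detected, and 2 of the 10 claudins, *Cldn5* and *Cldn15*. *Cldn1* then stood 0.02 log2 above the level and was not called, with a limma adjusted p of 0.614. The study's screens of sorted podocytes took 150 as the lowest raw signal, in other samples and with other software, so the scales may differ. At a linear signal of 150 here, 50.2% of all genes were detected, and 3 claudins, *Cldn1*, *Cldn5* and *Cldn15*. *Cldn19* stood 0.01 log2 above that level with a limma adjusted p of 0.796. At the median of the receptors, 90.4% of all genes were detected, and all 10 claudins. None of the 7 tubule claudins was thus detected at either stricter level, and all 7 were at the laxest. *Cldn5* and *Cldn15* were detected at all 4.

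**Figure D2:**
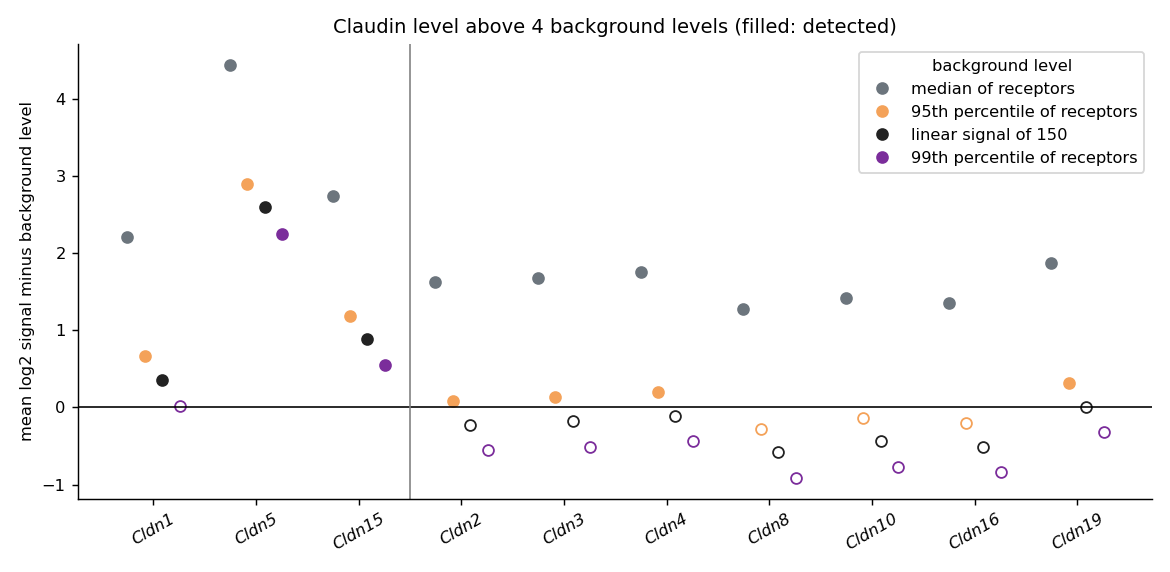
Mean log2 signal over 3 arrays minus each of 4 background levels (y axis) for the 10 claudins (x axis), 1 point per level, filled where the gene was detected. The points of *Cldn5* and *Cldn15* are filled at all 4 levels, that of *Cldn1* is open at the 99th percentile, at 0.02, and those of the 7 tubule claudins are filled at most at the median and the 95th percentile of the receptors.

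Between arrays, 5 of the 10 claudins held 1 value on all 3, namely *Cldn1*, *Cldn2*, *Cldn3*, *Cldn5* and *Cldn10*. *Cldn4*, *Cldn8* and *Cldn19* held 2 values, and *Cldn15* and *Cldn16* held 3. *Cldn15* spanned 0.42 log2 from replicate 3 to replicate 1, a ratio of 1.34, and 2.27% of all genes had an SD as large. *Cldn16* spanned 0.38 log2 from replicate 1 to replicate 3, a ratio of 1.30, and 3.18% of all genes had an SD as large. The high array was thus replicate 1 for *Cldn15* and replicate 3 for *Cldn16*, *Cldn19* and *Cldn4*. With 1 group and tied values these spreads were not tested.

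Some thick limb markers had the array order of *Cldn16*. *Cldn19* was tied on replicates 1 and 2 and differed only on replicate 3, where it was higher. *Umod* had log2 signals of 8.77, 9.18 and 9.78 on replicates 1, 2 and 3. *Slc12a1* had 6.46, 6.70 and 7.33, and *Sostdc1* had 7.78, 8.00 and 8.19. Like *Cldn16*, these 3 genes were highest on replicate 3 and lowest on replicate 1. *Kcnj1* went the other way, with 8.20, 8.20 and 7.65. *Bsnd*, the barttin subunit of chloride channels, had 7.05, 6.91 and 7.05, and *Egf*, *Ptger3* and *Enox1* held 1 value on all arrays. Over the 8 markers, 3 were highest on replicate 3 alone, 1 was lowest there and 3 were the same on all arrays. Of all genes, 54.2% were the same on all 3 arrays. The share of all genes highest on replicate 3 alone was not counted, so the first count cannot be judged against it. *Cldn16* and *Slc12a1* were not detected, and both lay below background on replicates 1 and 2. Their summed linear signal was 2189, 2373 and 2684. The part of thick limb RNA in the spread of *Cldn16* and *Cldn19* was not tested.

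**Figure D3:**
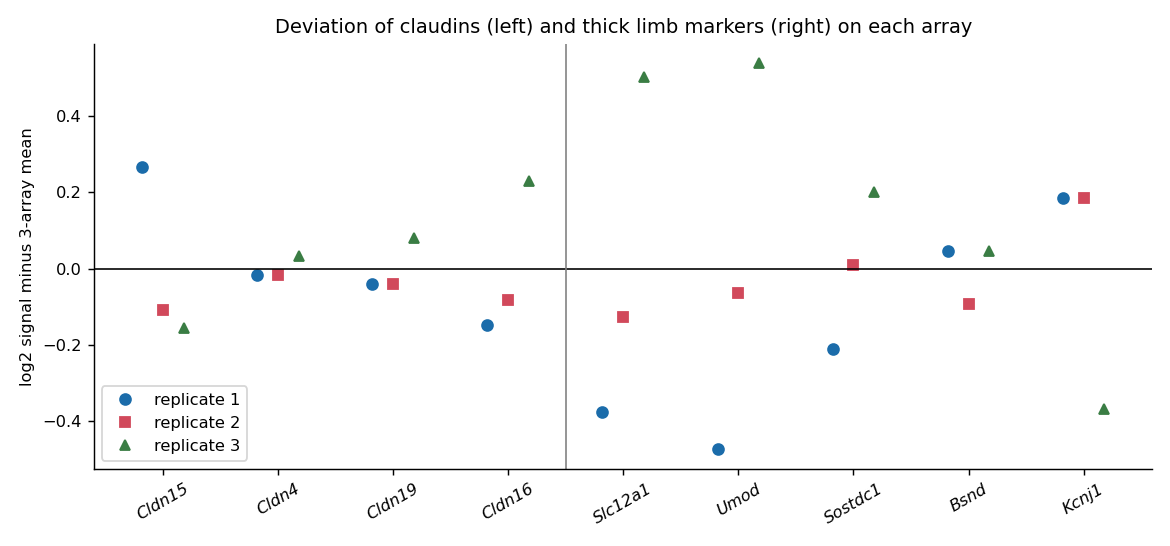
Log2 signal on each array minus the 3-array mean of the gene (y axis) for 4 claudins at left and 5 thick ascending limb markers at right (x axis), 1 point per array. *Cldn16*, *Slc12a1*, *Umod* and *Sostdc1* are highest on replicate 3, while *Cldn15* is highest on replicate 1 and *Kcnj1* is lowest on replicate 3.

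The deviations of *Cldn15*, the claudin with the largest SD, were nearest to those of *Ppp1r14b*, *Hmgn5* and *Bmt2*. *Ppp1r14b*, which encodes an inhibitor of protein phosphatase 1, had log2 signals of 10.37, 9.99 and 9.94, at a Euclidean distance of 0.0096 over the 3 arrays. *Hmgn5*, a nucleosome-binding protein, had 10.84, 10.46 and 10.40 at a distance of 0.017. *Bmt2* had 10.15, 9.81 and 9.74 at 0.018. Within a distance of 0.05 lay 31 genes, so with 3 arrays such a match is not rare. The summed linear signal of the podocyte list was also highest on replicate 1, at 47545 against 44861 and 44845, and so were those of the endothelial list (30880, 29608 and 30341), the parietal list (10800, 10785 and 10002), the distal list (7530, 6394 and 6871) and the collecting duct list (3736, 3448 and 3348). The mesangial list was lowest there, at 16904 against 17589 and 17652, and so were the proximal list, given above, and the thick limb list with its claudins (2542, 2730 and 3078). Their part in the *Cldn15* spread was not tested.

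Beyond the 10, 20 further genes named as claudins or claudin-like had a value, and 5 of them were detected, or 25%, against 58.9% of all genes. Their median was 0.23 log2 below background. *Cldnd1*, a claudin domain gene, had log2 signals of 10.06, 10.28 and 10.40 and was 3.32 ± 0.05 (SE, n = 3) log2 above background. *Cldn12*, a claudin without the usual binding tail for scaffold proteins, had 8.74, 8.77 and 8.77 and was 1.84 log2 above it. *Cldn22* had 7.78 on each array and was 0.86 log2 above it. *Cldn20* had 7.28, 7.28 and 7.48 and was 0.43 log2 above it, and the span of this gene overlaps *Tfb1m*. *Cldn14*, which blocks the *Cldn16* and *Cldn19* pore in the thick limb, had 7.02 on each array and was detected at 0.10 log2 above background.

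The 15 undetected genes of this list lay from 0.00 to 3.15 log2 below background. *Cldn11*, of myelin and Sertoli cells, had 6.92 on each array, *Cldn6* a mean of 6.85, *Tmem114* 6.83, *Cldn7* 6.82 and *Cldn9* 6.76. *Cldn18*, of stomach and lung, had 6.63, *Cldn17* 6.36 and *Cldn13* 6.27. *Cldnd2*, *Cldn23*, *Cldn34b3*, *Cldn34c4*, *Cldn24*, *Cldn34b2* and *Cldn34b4* had means from 5.78 down to 3.78. *Cldn17* is the next coding gene beside *Cldn8*, and *Cldn6* beside *Cldn9*, and none of these 4 was detected. Without replicate 1, 2 or 3 the number detected was 4 or 5 of 20.

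Transcripts of other membrane proteins at cell junctions were followed next. Of 14 such genes 12 were detected, or 85.7%, against 58.9% of all genes, with a median of 1.18 log2 above background against 0.37. *Cdh5*, the cadherin of endothelial adherens junctions, had 11.06, 10.90 and 10.90 and was 4.03 log2 above background. *F11r* and *Jam2*, junctional adhesion molecules, were 3.30 and 1.78 log2 above it. *Ildr2*, of the angulin family at tricellular corners, had 9.31 on each array and was 2.38 log2 above it. *Marveld2*, or tricellulin, had 8.56, 8.56 and 8.18. The 2 genes not detected were *Ocln*, the occludin gene, with 6.27 on each array and 0.65 log2 below background, and *Marveld3*, with 6.23 on each array and 0.70 log2 below. Of the 3 MARVEL proteins of tight junctions, *Marveld2* was thus the only one detected.

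Of 18 scaffold and polarity genes 14 were detected, or 77.8%, against 58.9% of all genes, with a median of 1.11 log2 above background against 0.37. *Tjp1*, which encodes ZO-1, the scaffold that binds claudin tails, had 12.04, 12.02 and 11.91 and was 5.07 log2 above background. *Mpp5*, or Pals1, of the Crumbs polarity complex, had 12.13, 12.14 and 12.06 and was 5.19 log2 above it. *Prkci*, an atypical protein kinase C, had 10.39 on each array, and *Cgnl1*, or paracingulin, had 9.78, 9.76 and 9.76. The undetected members lay near background. *Tjp3*, which encodes ZO-3, and *Pard6a* and *Pard6g*, of the Par complex, were 0.01, 0.02 and 0.09 log2 below it. *Cgn*, or cingulin, had 6.89, 6.75 and 7.10, a mean 0.01 log2 below background, and was above the level of its array on replicate 3 alone.

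**Figure D4:**
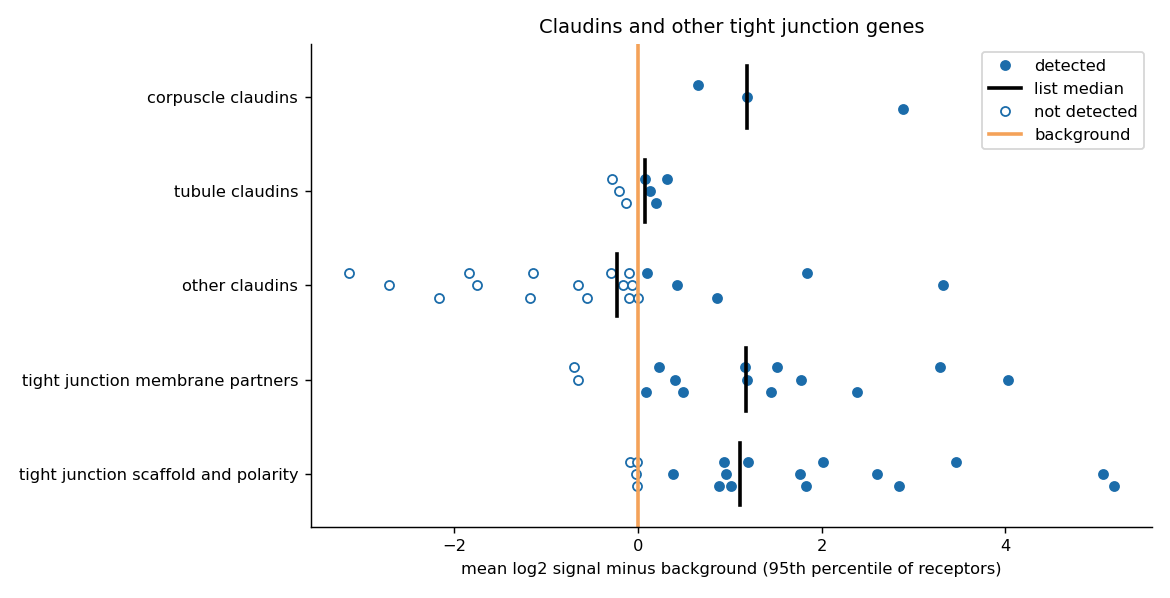
Mean log2 signal minus background, the 95th percentile of receptor probe sets (x axis), for the genes of 5 lists (y axis), 1 point per gene, filled where detected, with the list median as a black bar. The 3 corpuscle claudins and most membrane partners and scaffolds lie right of background, with medians of 1.19, 1.18 and 1.11, while the 7 tubule claudins cluster around it, with a median of 0.08, and 15 of 20 other claudins lie left of it.

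Of 14 genes known to act on claudins 8 were detected, or 57.1%, near the 58.9% of all genes, with a median of 0.17 log2 above background against 0.37. The tetraspanins *Cd81* and *Cd9*, of which *Cd81* binds claudin-1, were 5.64 and 2.36 log2 above background. *Cul3*, a ubiquitin ligase scaffold, was 5.20 log2 above it. *Sox18*, an endothelial transcription factor known to act on the *Cldn5* gene, had 9.18, 9.18 and 9.34 and was 2.31 log2 above it. *Hnf4a*, *Wnk4*, *Casr* and *Tmprss4* were detected at 0.47, 0.25, 0.19 and 0.15 log2. *Casr*, the calcium-sensing receptor, acts on *Cldn14* and *Cldn16* in the thick limb. *Cdx2*, a gut transcription factor known to act on *Cldn2*, *Klhl3*, the adaptor of *Cul3* that is known to act on claudin-8, and *Epcam*, a partner of claudin-7, were not detected, at 0.15, 0.37 and 0.47 log2 below background. *Elf3*, *Ehf* and *Grhl2*, transcription factors of tight epithelia, were not detected either.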

How the data were processed

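Total RNA of 3 pooled samples of sieved corpuscle was amplified in 1 round (NuGEN Pico kit), labelled with biotin and hybridised. The authors deposited 1 table of log2 signals for 35557 probe sets. Affymetrix Expression Console is the tool in the submitters' processing notes. Its version and settings are not given in the sources used here. No further normalization was applied, and the table held 0 columns of other samples. Arrays carry no count depth, so their number limits the precision.

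The annotation gave 1 symbol to 21789 probe sets, several to 1621 and none to 12147. Of the first, 21698 matched a current gene ID, which changed 0 symbols. Linear signals are 2 to the power of the log2 value. Detection used limma 3.58.1 in R 4.3.3 (lmFit with an intercept, eBayes with a trend). Because of the ties, its standard errors depended on level rather than on the spread of each gene, and a p-value for 1 gene may be too small. The test was tried on simulated data. Those data held no values tied between arrays, so the trial does not cover the ties seen here.

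The claudins and all gene lists were chosen with earlier results of these data known. Named were all claudins with a value, the 4 detected genes of each tested list farthest above background, up to 3 undetected ones nearest below it, and the 3 genes closest in pattern to *Cldn15*. Further thick limb, parietal, collecting duct, membrane, scaffold and regulator genes were named after their values were seen. So were the genes at the edge of the call. Podocyte, endothelial and mesangial markers were given as lists only, save *Cdh5*, *Sox18* and *Gata3*, which were named as members of other lists. Mesangial markers were detected in 8 of 9 cases, or 88.9%, against 58.9% of all genes, with a median of 3.32 log2 above background. Of the lists, 6 claudins (*Cldn25*, *Cldn34a*, *Cldn34b1*, *Cldn34c1*, *Cldn34c2*, *Cldn34d*) and some genes of the other lists were not analysed here. RefSeq start regions were cut to the 250 bases before the start, leaving out 50 after it. Alternatives changed the background, normalization, variance prior, probe set, filter and arrays used.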

Additional observations from a re-analysis of the deposited data

How the results depend on the processing

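The 95th percentile call lay close to background, and the background level moved the counts most. At the 99th percentile of the receptors 2 of 10 claudins, 0 of 7 tubule claudins and 3 of 20 other claudins were detected. Of all genes, 41.7% were detected there. *Cldn2*, *Cldn3*, *Cldn4* and *Cldn19* stood at -0.56, -0.51, -0.44 and -0.32 log2 from that level. At a signal of 150 the counts were 3, 0 and 3, beside 50.2% of all genes. *Cldn2*, *Cldn3* and *Cldn4* stood at -0.23, -0.18 and -0.11 from it. At the receptor median 7 of 7 tubule claudins, 15 of 20 other claudins and 18031 of all genes (90.4%) were detected. *Cldn8*, *Cldn10* and *Cldn16* stood at 1.27, 1.42 and 1.35 from it. Leaving out 1 array gave 6 to 7 claudins, 3 to 3 corpuscle claudins, 3 to 4 tubule claudins, 4 to 5 other claudins, 11 to 12 membrane partners, 14 to 15 scaffold genes and 11424 to 11869 of all genes. The claudin lost was *Cldn2*, without replicate 1 and without replicate 3. Quantile normalization, no trend, no test and the filter on low genes each left the 7 claudins detected. Taking the lowest probe set could not change the signals of these 7, since among the 10 only *Cldn10* had several probe sets. The *Dzip1* probe set, an alternative chosen after seeing the data, left *Cldn10* undetected. Of 111 values of single claudins under these alternatives, 97 kept their direction and call. Among the 97 are those under the lowest probe set for the 9 claudins with 1 probe set, whose signals could not change. With no trend, no test or the filter on low genes the distance from background stays the same by design. Only the call could change in those settings. No paired analysis was possible because all 3 samples belong to 1 group.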
